A study of Homo sapiens with 6 samples.

Results

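Transcripts of 6 ligands of the epidermal growth factor (EGF) family and of 3 receptors of the ERBB family were measured in AsPC-1 cells after transfection of siRNAs against HMOX1. The ligand genes are AREG (amphiregulin), EREG (epiregulin), TGFA (transforming growth factor alpha), HBEGF (heparin-binding EGF-like growth factor), BTC (betacellulin) and EPGN (epigen), and the receptor genes are EGFR, ERBB2 and ERBB3. These 9 genes of 20263 in the count table were chosen by name, with fold changes of the same libraries already known, so their levels and calls are a description and support nothing beyond themselves. A filter on low counts kept 13769 genes for testing and 8 of the 9, leaving out EPGN. AsPC-1 is an established human line of pancreatic adenocarcinoma cells. The 3 groups were cells given a negative control siRNA (siControl), cells given HMOX1si1 and cells given HMOX1si2, with 2 libraries each. All were grown and transfected with the same reagent in the same line, so every comparison rests on RNA from 1 cell line. The labels number the replicates but do not say whether they were separate cultures, so the spread between them, and every p-value that rests on it, may be technical.

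The ligands are made as precursors anchored in the cell membrane and are released when proteases, chiefly the metalloprotease ADAM17, cut them near the cell surface. AREG, EREG, TGFA, HBEGF, BTC and EPGN bind EGFR, and some of them, such as HBEGF, BTC and EREG, also engage ERBB4. Bound receptors pair and signal through RAS-RAF-ERK and PI3K-AKT; ERBB2 has no known ligand and serves as a partner, while ERBB3 binds neuregulins and has little kinase activity of its own. In the pancreas, EGFR and its ligands are known for their part in the change of acinar cells into duct-like cells and in the growth of adenocarcinoma.

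EREG and AREG were the members with the widest difference between the siRNAs, and they lie beside each other on chromosome 4 in the same direction, so the stretch just before each gene's annotated start is shown for comparison, together with the last 30 bases before the start used for ERBB2, the receptor gene that passed with HMOX1si2. The sequences are from RefSeq (GRCh38.p14, plus strand, which is the coding direction of all 3 genes), with motif matches in capitals: TGACGTCA (the cyclic AMP response element), its core TGACG; the TATA box, TATAAA; and CCGGAAG (an ETS site) or its reverse complement. They cover chr4:74444886-74445133, chr4:74364895-74365142 and chr17:39688064-39688093. The stretches of AREG and EREG end just before the annotated gene. That of ERBB2 lies inside the annotated gene, which begins at 39687914, so it is not upstream of that annotated start.
AREG: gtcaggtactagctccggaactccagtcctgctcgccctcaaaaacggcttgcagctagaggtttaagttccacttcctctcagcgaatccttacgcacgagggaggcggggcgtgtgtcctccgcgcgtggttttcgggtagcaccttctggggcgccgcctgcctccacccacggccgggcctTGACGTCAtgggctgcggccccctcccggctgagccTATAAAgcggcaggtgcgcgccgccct
EREG: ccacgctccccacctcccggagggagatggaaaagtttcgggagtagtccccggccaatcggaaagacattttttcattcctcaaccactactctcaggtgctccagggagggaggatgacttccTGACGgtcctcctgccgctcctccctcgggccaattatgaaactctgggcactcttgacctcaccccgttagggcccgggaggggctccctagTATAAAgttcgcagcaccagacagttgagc
ERBB2: tccaCTTCCGGagtaaCCGGAAGttcctgt

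Motifs were searched in the 250 bases before each RefSeq start, on both strands, and positions are counted upstream of that start, which lies a few bases after the last letter printed for AREG and EREG. AREG holds the full element TGACGTCA at 65 to 58 bases, EREG holds only the core TGACG at 125 to 121, and EPGN holds the core at 44 to 40. The full element stands in 1.65% of the 35116 promoters searched and the core, which it contains on both strands, in 21.2%. TATAAA stands at 29 to 24 bases in AREG, at 32 to 27 in EREG and at 29 to 24 in EPGN, at 146 to 141 and 36 to 31 in the second window of EGFR, and in 10.7% of all promoters. ERBB2 holds CCGGAAG at 26 to 20 (minus strand) and at 14 to 8 (plus strand), a word found in 8.52% of promoters. GGGCGG, the GC box, stood in 42.6% of promoters, among them those of AREG (once, at 9 to 4 on the minus strand), HBEGF (5 matches), TGFA (3) and EGFR (2 in the first of its 2 windows). TGFA also holds the core TGACG, at 154 to 150. TGACTCA, the AP-1 site, was matched in the second window of EGFR (2 matches; 4.2% of promoters), and TGACNNNGC, the core of the antioxidant response element, in none of the windows of the 8 members searched (10.9% of promoters). BTC held none of the 7 motifs, and ERBB3 has no entry in the table. The second window of EGFR (from 55109589) and both windows of TGFA (from 70553447 and 70553827) lie inside the annotated genes. They are thus not upstream of those annotated starts. All matches of TGFA fall in the window from 70553827. The windows of BTC and HBEGF lie partly inside the annotated genes. A match describes the letters only.

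HMOX1, which encodes the heme-degrading enzyme heme oxygenase-1, was measured first as a check of the labels. It stood at 9.06 and 8.52 CPM (counts per 1000000 counts of the library, scaled by the trimmed mean of M-values, TMM) in siControl, 2.43 and 2.80 with HMOX1si1, and 1.27 and 1.17 with HMOX1si2. The groups did not overlap. HMOX1 fell by 1.75 on the log2 scale with HMOX1si1 (SE 0.16, edgeR adjusted p = 0.00618) and by 2.85 with HMOX1si2 (SE 0.17, edgeR adjusted p = 0.00951). Without siControl replicate 2 neither passed (edgeR adjusted p = 0.0628 with HMOX1si1), and without siControl replicate 1 HMOX1si2 did not, although every value stayed negative. Libraries held 36144330 to 45068660 counts and 14999 to 15220 genes above 0. The epithelial markers EPCAM, CDH1, KRT7, KRT8, KRT18, KRT19, MUC1, CEACAM5, CEACAM6 and ELF3 were all at or above 1 CPM, and their summed level was 14460 to 16330 CPM in siControl, 10860 to 10930 with HMOX1si1 and 14640 to 14810 with HMOX1si2. The lower sum with HMOX1si1 lay in KRT8 (a mean of 6202 CPM in siControl and 3877 with HMOX1si1), KRT18 (2934 and 2119) and KRT19 (3515 and 2116). The fibroblast list summed to 79.0 to 125.5 CPM over all libraries and the blood list to 34.2 to 64.3, with CD3E and HBB at 0. Most of each sum came from 1 gene, LUM (a mean of 118.7 CPM in siControl) and LYZ (45.98), while COL1A2, COL3A1, THY1 and PTPRC were too low to be tested; endothelial markers summed to at most 1.71 CPM and acinar and endocrine markers to at most 0.475, with CPA1, PNLIP, INS and SST at 0. In such bulk samples fewer expressing cells and less RNA per cell cannot be told apart.

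Per length, EGFR was the most abundant of the 9 transcripts in all 6 libraries. The level in siControl, in CPM per kilobase of the gene's exons, was 142 for EGFR, 50.1 for ERBB3, 11.6 for AREG, 10.9 for ERBB2, 10.1 for HBEGF, 6.25 for TGFA, 4.20 for EREG and 0.386 for BTC, and EPGN was at 0. The siControl libraries of AREG (11.3 and 11.9) and ERBB2 (11.5 and 10.4) overlapped, and those of HBEGF (10.3 and 9.95) reached close to the lower one of ERBB2, so these 3 neighbours in the order are not set apart by their spread. With the longest annotated transcript in place of all exons, ERBB2 stood at 22.9 CPM per kilobase and AREG at 15.4, so that the order of this pair depends on the length used. With HMOX1si1 the level of EREG was 8.95 CPM per kilobase, above HBEGF (7.74) and TGFA (4.69), and with HMOX1si2 it was 3.19, below both (8.55 and 4.36).

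Among all genes tested, the quasi-likelihood test of edgeR, with p-values adjusted by the Benjamini-Hochberg method, called 10.1% on average over both siRNAs (5.16% higher and 4.93% lower) at an adjusted p under 0.05, and of the 8 members tested 1, TGFA, was lower and 0 were higher. With HMOX1si1 it called 10% of genes and 1 member, EREG, higher. With HMOX1si2 it called 5.73% of genes and 2 members, ERBB2 higher and AREG lower. HMOX1si2 and HMOX1si1 differed in 3.62% of genes and in 2 members, AREG and EREG. The median log2 fold change of the 8 members on average was −0.21, that with HMOX1si1 was −0.12 and that with HMOX1si2 was −0.39, against −0.00, −0.00 and 0.00 for all genes tested. Before adjustment, at p under 0.05, 6 of the 8 members were counted in each of the first 3 comparisons and 3 in the difference, beside 4316, 4234, 3560 and 2842 of all 13769 genes. Both siRNAs were set against the same 2 siControl libraries, so the 2 columns of values are not independent of each other. Statements that libraries or groups did not overlap, or that all knockdown libraries stood above or below siControl, describe these libraries only. They are not evidence of a change, above all for members that did not pass. The share of all genes with such a separation was not counted.

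**Figure D1:**
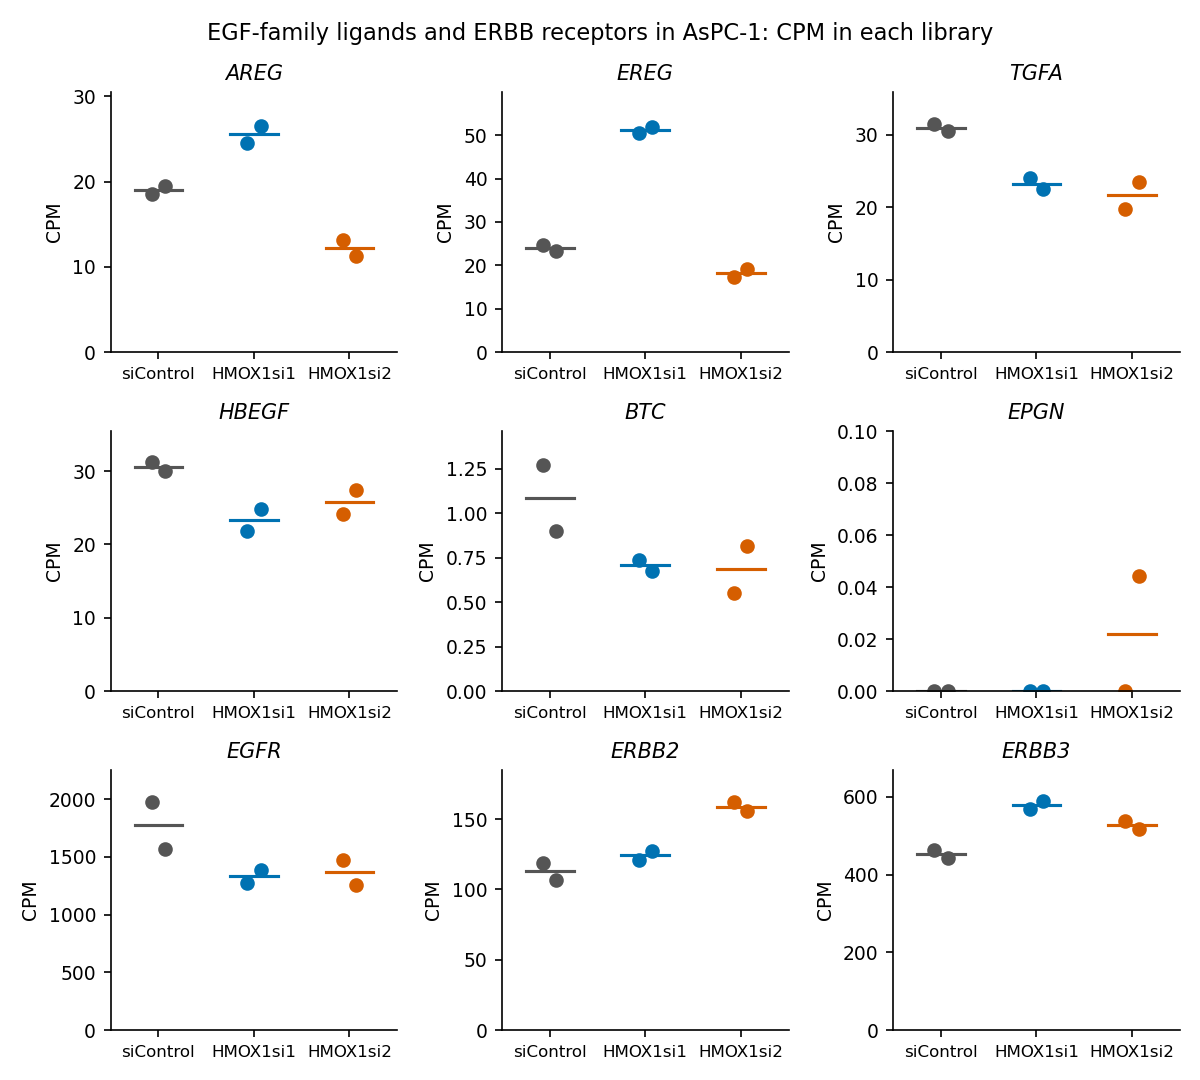
TMM-scaled CPM of each member (vertical axes, each from 0) in the 2 libraries of each group (points), with the group mean as a line. EREG stood near 51 CPM in both HMOX1si1 libraries and at 17.4 to 24.8 in the other 4, and EPGN had counts in 1 HMOX1si2 library only.

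EREG, an EGFR and ERBB4 ligand, was higher with HMOX1si1 and differed between the siRNAs. Its level was 24.8 and 23.3 CPM in siControl, 50.6 and 51.8 with HMOX1si1, and 17.4 and 19.1 with HMOX1si2, from 896, 1033, 2121, 2071, 756 and 864 counts. Both HMOX1si1 libraries stood above every other library, and both HMOX1si2 libraries stood below the other 4. EREG rose by 1.09 on the log2 scale with HMOX1si1 (SE 0.10, 2.13-fold, edgeR adjusted p = 0.00673), and with HMOX1si2 its log2 fold change was −0.40 (SE 0.10), which did not pass (edgeR adjusted p = 0.0806). The difference, HMOX1si2 minus HMOX1si1, was −1.49 (SE 0.10, 95% interval −1.74 to −1.24, edgeR adjusted p = 0.00671), the 12th smallest p of the 13769 genes. That difference passed in all 16 alternative settings run, between −1.55 and −1.42. It passed only narrowly without HMOX1si1 replicate 1 (−1.50) or HMOX1si1 replicate 2 (−1.47). The change with HMOX1si1 passed in 13 of 15 and missed without siControl replicate 2 (1.05, edgeR adjusted p = 0.0688) and without HMOX1si1 replicate 2 (1.07, edgeR adjusted p = 0.0521). The average over both siRNAs, 0.35 (edgeR adjusted p = 0.0610), mixes a rise with a lower value and describes neither.

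AREG, an EGFR ligand, was ordered like EREG, with HMOX1si1 highest and HMOX1si2 lowest. It stood at 18.5 and 19.5 CPM in siControl, 24.6 and 26.5 with HMOX1si1, and 13.1 and 11.3 with HMOX1si2. The 3 groups did not overlap. AREG fell by 0.64 on the log2 scale with HMOX1si2 (SE 0.13, edgeR adjusted p = 0.0438), while its value with HMOX1si1, 0.42 (SE 0.13, edgeR adjusted p = 0.0835), did not pass. Between the siRNAs AREG differed by −1.07 (SE 0.13, 95% interval −1.38 to −0.76, edgeR adjusted p = 0.0173). It passed in 9 of 16 alternative settings, between −1.18 and −0.96, and missed narrowly without siControl replicate 1 (edgeR adjusted p = 0.0529), siControl replicate 2 (0.0512) or HMOX1si2 replicate 2 (0.0524), and also without HMOX1si1 replicate 1 (0.0857) or HMOX1si1 replicate 2 (0.0993). The fall with HMOX1si2 was no longer called when any 1 of the 6 libraries was left out, with an edgeR adjusted p of 0.0871 to 0.189 and values of −0.76 to −0.54. The counts hold no entry for the gene ID of a near-identical copy of AREG. Whether that copy was part of the gene set counted was not stated. If it was, shared reads may be in the count of AREG or lost.

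Lying on opposite sides of siControl was common among genes that differed between the siRNAs: of 499 such genes, 312 (62.5%) did so, 141 of them higher with HMOX1si1 and lower with HMOX1si2, as EREG and AREG were. Sides were taken from the sign of each log2 fold change alone, with no threshold against siControl. Selecting genes for a difference between the siRNAs also favours opposite signs. The keratin genes KRT8, KRT18 and KRT19, chosen from the 10 epithelial markers after their values were seen, fell with HMOX1si1, by 0.68, 0.47 and 0.73 on the log2 scale (edgeR adjusted p = 0.0155, 0.0461 and 0.0112), and stood at −0.03, 0.00 and −0.30 with HMOX1si2 (edgeR adjusted p = 0.871, 0.991 and 0.112). Of the 3, KRT8 passed for the difference between the siRNAs (0.65, edgeR adjusted p = 0.0264), a call lost when any 1 of the 6 libraries was left out, and KRT18 and KRT19 did not (0.0703 and 0.0594). KRT8 and KRT18 share annotated exons with each other, and without stated strand use the reads of such stretches cannot be assigned. The other 7 markers did not pass with HMOX1si1, and CEACAM5 (0.82), CDH1 (0.33) and CEACAM6 (0.22) had values above 0 there. All 3 keratin calls with HMOX1si1 were lost without siControl replicate 2 or without either HMOX1si1 library. That of KRT8 was lost in 4 of 15 alternative settings, that of KRT18 in 10 and that of KRT19 in 3. The settings that lost KRT18 included each of the 6 with a library left out. HMOX1 itself differed between the siRNAs by −1.10 (edgeR adjusted p = 0.0284), being lower with HMOX1si2, and that call was lost in 10 of 16 alternative settings, among them each of the 6 with a library left out (edgeR adjusted p up to 0.144). The part of these genes in the values of EREG and AREG was not tested.

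**Figure D2:**
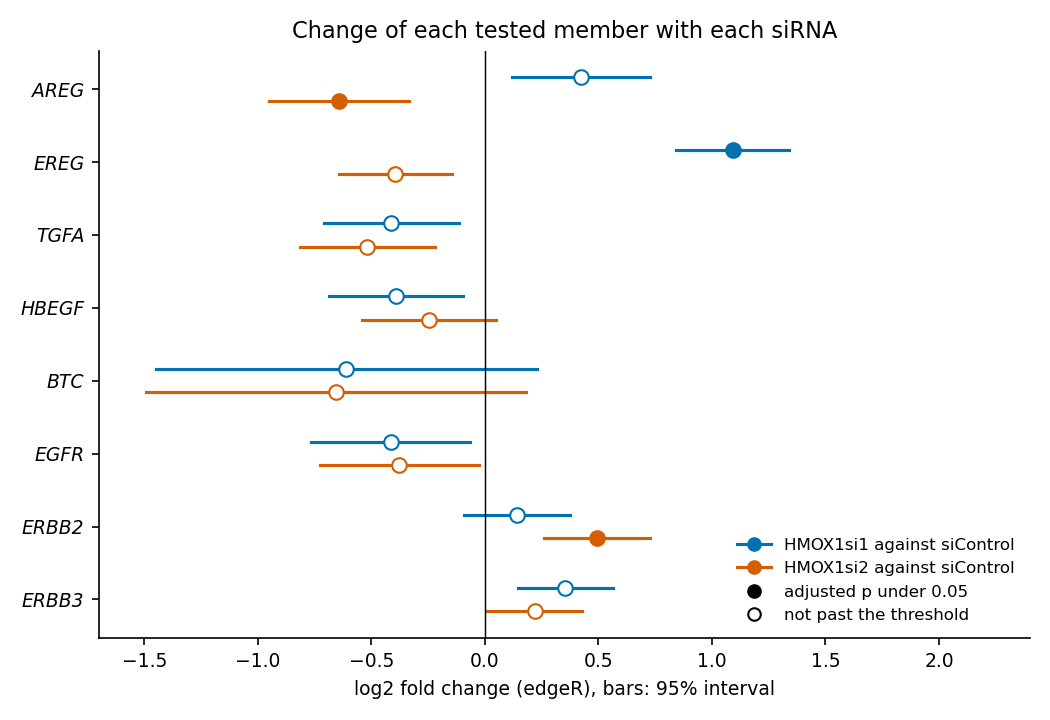
log2 fold change of each tested member against siControl (horizontal axis) with HMOX1si1 (blue) and HMOX1si2 (orange); bars are 95% intervals of each gene, not adjusted for the number of genes, and filled points passed the adjusted threshold. EREG and AREG have points on both sides of 0, and TGFA, HBEGF, BTC and EGFR have both points below it.

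EREG, AREG, EPGN and BTC form a cluster on the long arm of chromosome 4 (GRCh38, GENCODE 29). EPGN spans 74308473 to 74315307, EREG 74365143 to 74388751 and AREG 74445134 to 74455009 on the plus strand, and BTC spans 74744759 to 74794686 on the minus strand. The cluster covers 486 kb, and 56.4 kb separate the end of EREG from the start of AREG. The members of the cluster differed in level. EPGN had 0 counts in 5 libraries and 2 counts in HMOX1si2 replicate 2, and 3 counts, the most that a count of 0 allows, would be 0.0663 to 0.0829 CPM, so its response was not detectable at this depth. BTC was low, at 1.27 and 0.901 CPM in siControl, 0.739 and 0.675 with HMOX1si1 and 0.553 and 0.818 with HMOX1si2. All 4 knockdown libraries of BTC stood below both siControl libraries, but at 24 to 46 counts a library the log2 fold changes of −0.61 (SE 0.34) and −0.65 (SE 0.34) did not pass (edgeR adjusted p = 0.278 for both). Without siControl replicate 1 they were −0.35 and −0.40, and without HMOX1si2 replicate 1 the value of BTC with HMOX1si2 was −0.40. The difference of BTC between the siRNAs was −0.04, with a 95% interval of −0.90 to 0.81, which is too wide to set it apart from AREG or to call it alike.

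The nearest genes of the table on each side of the cluster did not pass in any of the 4 comparisons. Before EPGN lie the chemokine genes CXCL3 and CXCL2 and MTHFD2L, a mitochondrial folate enzyme gene. Their difference between the siRNAs was 0.27 for CXCL3, −0.69 for CXCL2 and −0.07 for MTHFD2L (edgeR adjusted p = 0.642, 0.226 and 0.882). CXCL2 had log2 fold changes of 0.84 with HMOX1si1 and 0.15 with HMOX1si2 from a mean of 1.17 CPM in siControl. After BTC lie PARM1, which was not tested, and RCHY1 and THAP6, with differences of 0.28 and 0.34 (edgeR adjusted p = 0.373 and 0.587).

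**Figure D3:**
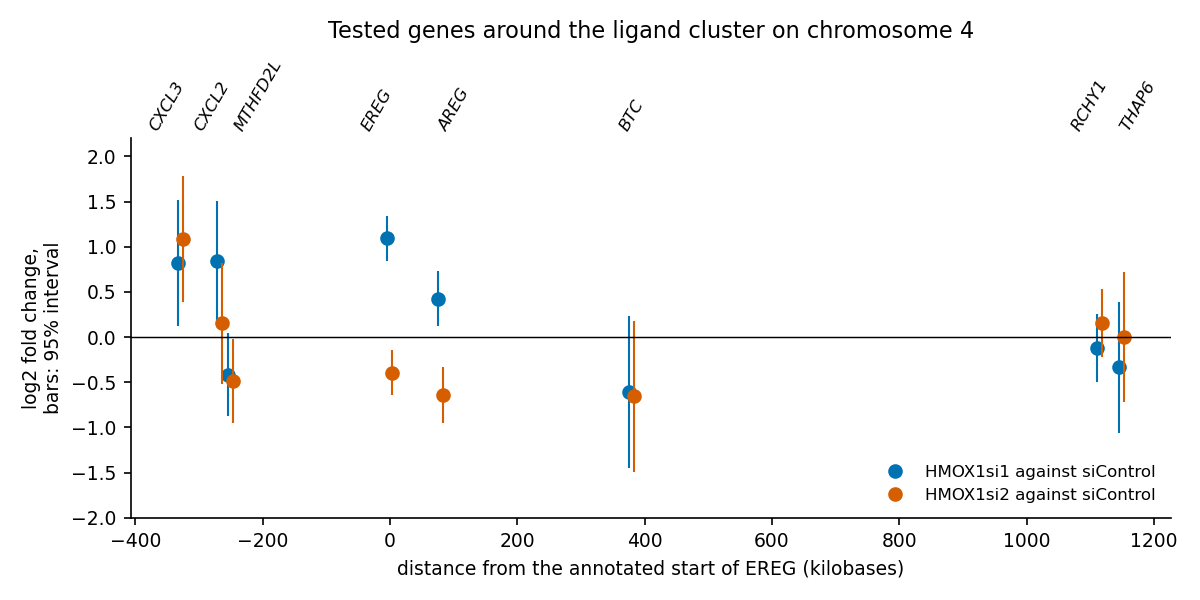
log2 fold change against siControl (vertical axis, bars 95% intervals) of the tested genes by the distance of their annotated start coordinate from that of EREG, with HMOX1si1 in blue and HMOX1si2 in orange. EREG and AREG are the genes whose 2 intervals lie on opposite sides of 0; EPGN and PARM1 were not tested and are not drawn.

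TGFA, an EGFR ligand long studied in ductal cells of the pancreas, was lower on average over both siRNAs. It stood at 31.5 and 30.5 CPM in siControl, 24.0 and 22.6 with HMOX1si1, and 19.8 and 23.5 with HMOX1si2. All 4 knockdown libraries were below both siControl libraries, and the knockdown groups overlapped each other. TGFA fell by 0.46 on the log2 scale on average (SE 0.10, 1.38-fold, edgeR adjusted p = 0.0453), with −0.41 for HMOX1si1 (edgeR adjusted p = 0.0834) and −0.52 for HMOX1si2 (edgeR adjusted p = 0.0656). Between the siRNAs TGFA differed by −0.11, with a 95% interval of −0.40 to 0.19 (edgeR adjusted p = 0.685). The call on average stood close to the threshold: it passed in 7 of 15 alternative settings, was lost when library totals replaced TMM (−0.45) and, among other settings, when either siControl library, either HMOX1si1 library or HMOX1si2 replicate 1 was left out, and had an edgeR adjusted p of at most 0.197 with values of −0.53 to −0.41.

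HBEGF, which binds EGFR and ERBB4, had lower values with both siRNAs and did not pass. It stood at 31.2 and 30.0 CPM in siControl, 21.8 and 24.9 with HMOX1si1, and 24.2 and 27.4 with HMOX1si2. All 4 knockdown libraries were below both siControl libraries. Its log2 fold changes were −0.39 (SE 0.12, edgeR adjusted p = 0.0911) with HMOX1si1 and −0.25 (SE 0.12, edgeR adjusted p = 0.252) with HMOX1si2, and it was called in 0 of 15 alternative settings in either comparison, DESeq2 included. Without HMOX1si2 replicate 1 the value with HMOX1si2 was −0.16.

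Summed over the 6 ligands, the level per kilobase was 32.3 and 32.7 CPM in siControl, 36.1 and 38.2 with HMOX1si1, and 23.2 and 24.3 with HMOX1si2. The groups did not overlap. With HMOX1si1 the levels of AREG and EREG were above, and those of HBEGF and TGFA below, siControl, and with HMOX1si2 all 4 were below. EREG made up 12.6% to 13.2% of the ligand sum in siControl, 23.7% to 24.5% with HMOX1si1 and 13.1% to 13.7% with HMOX1si2. AREG made up 34.4% to 36.7%, 41.3% to 42.1% and 28.1% to 34.3% in the same order, and HBEGF 30.8% to 31.6%, 20.03% to 21.6% and 34.5% to 37.4%. TGFA held 19.0% to 19.4%, 11.9% to 13.4% and 17.2% to 19.5%. The share of EREG with HMOX1si2 was near that in siControl while its level, and that of the other 3, was lower. These shares are descriptions with no test, and a rise of 1 member lowers the share of the others.

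**Figure D4:**
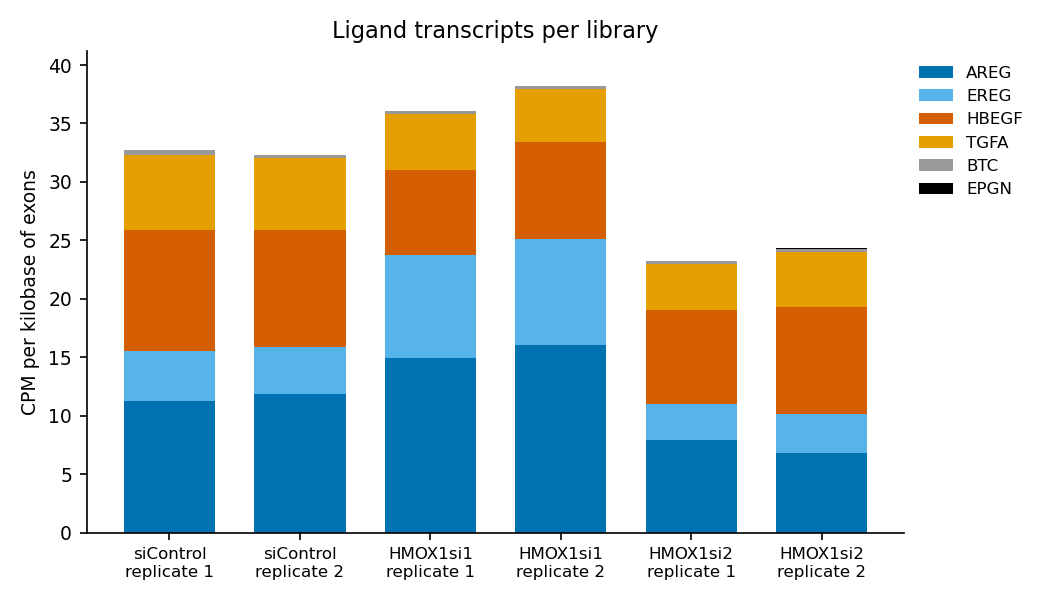
Stacked bars of the 6 ligands in CPM per kilobase of exons (vertical axis) in each of the 6 libraries (horizontal axis). The HMOX1si1 bars reach 36.1 and 38.2, the siControl bars 32.3 and 32.7 and the HMOX1si2 bars 23.2 and 24.3; BTC and EPGN are barely visible.

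Of the receptors, ERBB2 rose with HMOX1si2. Its level was 118.6 and 107.0 CPM in siControl, 121.2 and 127.6 with HMOX1si1, and 162.3 and 155.5 with HMOX1si2. Both HMOX1si2 libraries stood above the other 4, and both HMOX1si1 libraries stood above siControl by a smaller margin. The log2 fold change with HMOX1si2 was 0.49 (SE 0.10, 1.41-fold, edgeR adjusted p = 0.0428), that with HMOX1si1 was 0.14 (SE 0.10, edgeR adjusted p = 0.358), and the difference between them, 0.35 (95% interval 0.12 to 0.59), did not pass (edgeR adjusted p = 0.106). The call with HMOX1si2 was lost when any 1 of the 6 libraries was left out, with values of 0.42 to 0.56 and an edgeR adjusted p of 0.0782 to 0.186. ERBB2 shares annotated exons with MIEN1 and PGAP3, and without stated strand use the reads of such stretches cannot be assigned. MIEN1 had log2 fold changes of −0.38 and −0.43 and PGAP3 of −0.20 and 0.24 with HMOX1si1 and HMOX1si2, and neither passed (edgeR adjusted p = 0.0858, 0.0855, 0.307 and 0.264).

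ERBB3, the neuregulin receptor, was higher in all 4 knockdown libraries without passing. It stood at 463.0 and 443.3 CPM in siControl, 568.1 and 589.9 with HMOX1si1, and 536.9 and 518.0 with HMOX1si2, and the 3 groups did not overlap. Its log2 fold changes were 0.35 with HMOX1si1 (SE 0.09, edgeR adjusted p = 0.0538) and 0.22 with HMOX1si2 (SE 0.09, edgeR adjusted p = 0.176). The value with HMOX1si1 lay at the threshold, and it passed in 3 of 15 alternative settings: library totals (edgeR adjusted p = 0.0499), a filter of at least 1 CPM in 2 libraries and DESeq2 (adjusted p = 0.00319). A second annotated gene, ENSG00000257411, shares exons with ERBB3 but had only 3 to 4 counts a library.

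EGFR, the receptor for the ligands above, was lower in all 4 knockdown libraries without passing in edgeR. It stood at 1974 and 1570 CPM in siControl, 1270 and 1390 with HMOX1si1, and 1473 and 1256 with HMOX1si2. The siControl libraries differed from each other by more than the lower of them differed from the nearest knockdown library. The log2 fold changes were −0.41 with HMOX1si1 (SE 0.14, edgeR adjusted p = 0.116) and −0.38 with HMOX1si2 (SE 0.14, edgeR adjusted p = 0.170), and the siRNAs differed by 0.04 with a 95% interval of −0.31 to 0.39. On average over both siRNAs the value of −0.40 was −0.55 without siControl replicate 2 and −0.23 without siControl replicate 1, so leaving out siControl replicate 1 moved it by more than 1.5 times. DESeq2 called that average (adjusted p = 0.0357), as it did those of TGFA, EREG (0.0145), ERBB2 (0.0122) and ERBB3 (0.0063).

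Within the 3 receptors, the share of EGFR in the summed level per kilobase was 67.8% to 71.5% in siControl, 57.6% to 58.9% with HMOX1si1 and 58.1% to 61.04% with HMOX1si2. ERBB3 held 23.2% to 26.5%, 34.6% to 35.7% and 30.8% to 33.2%, and ERBB2 held 5.21% to 5.61%, 6.56% to 6.67% and 8.16% to 8.73%. The ratio of ERBB2 to EGFR per kilobase was 0.0729 and 0.0827 in siControl, 0.116 and 0.111 with HMOX1si1, and 0.134 and 0.150 with HMOX1si2. In each knockdown library ERBB2 and ERBB3 thus stood higher relative to EGFR than in either siControl library. Only ERBB2 with HMOX1si2 passed as a single gene. These shares and ratios are descriptions with no test, and a lower value of EGFR raises those of the others. EGFR itself did not pass in edgeR and stood apart in the siControl libraries (1974 and 1570 CPM).

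The rest of the family was scarcely measured in these cells. EGF had 0 to 9 counts a library, NRG1 had 2 counts in 1 library, and NRG3 and ERBB4, the remaining receptor, had 0 in all 6, which allows up to 0.0663 to 0.0829 CPM. NRG2 had 2 to 13 counts. NRG4, an ERBB4 ligand, had 126 to 215 counts, a mean of 4.53 CPM in siControl, 4.33 with HMOX1si1 and 3.58 with HMOX1si2, and log2 fold changes of −0.06 and −0.34 that did not pass (edgeR adjusted p = 0.910 and 0.537). NRG4 shares exons with FBXO22.

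The other genes of the pathway were taken from 7 lists, the rest of the family among them, with 105 genes of which 95 were tested. On average 11 of the 95 were higher and 2 lower (10.1% of all genes called, 5.16% higher and 4.93% lower). With HMOX1si1 10 were higher and 1 lower (10% of all genes called), and with HMOX1si2 3 and 3 (5.73%). For the difference they were 1 and 2 (3.62%). The median average log2 fold change was 0.13. All 13 average calls kept their direction in every alternative setting, but with siControl replicate 1 or siControl replicate 2 left out edgeR called 0 of them, and 0 genes of the whole table. Without HMOX1si1 replicate 1 or HMOX1si1 replicate 2 it called 2 of the 13, without HMOX1si2 replicate 1 it called 6, and without HMOX1si2 replicate 2 it called 12. The differences between the siRNAs of CBLC and CCND1, and the rise of ADAM15 with HMOX1si2, were lost when any 1 of the 6 libraries was left out, and that of PIK3CB in every such case but HMOX1si2 replicate 2.

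Of 8 tested genes of ligand shedding, 1 was lower on average and 0 were higher (4.93% and 5.16% of all genes). FRMD8, which stabilises the complex of iRhom and ADAM17 at the cell surface, fell from a mean of 173.6 CPM to 151.9 with HMOX1si1 and 106.7 with HMOX1si2 (average log2 fold change −0.45, edgeR adjusted p = 0.0355), though HMOX1si1 alone did not pass (−0.19, edgeR adjusted p = 0.260). ADAM15, another metalloprotease, rose with HMOX1si2 (0.55, edgeR adjusted p = 0.0458) and shares exons with DCST1. ADAM17 itself had a log2 fold change of 0.08 on average (edgeR adjusted p = 0.608).

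Of 20 genes listed for restraint and turnover of the receptors, 2 were higher and 1 lower on average (5.16% and 4.93% of all genes). The list also holds the adaptor gene GRB7 and genes that sustain receptors, USP8 and TNS4, none of them past the threshold on average. LRIG1, a membrane protein that promotes loss of ERBB receptors, rose from a mean of 71.7 CPM to 126.6 and 98.6 (0.64 on average, edgeR adjusted p = 0.0455), though HMOX1si2 alone did not pass (0.46, edgeR adjusted p = 0.148). PTPRK, a receptor tyrosine phosphatase that acts on EGFR, rose on average, from 131.1 CPM to 191.3 and 179.0 (0.50, edgeR adjusted p = 0.0489), but neither siRNA passed alone (edgeR adjusted p = 0.0525 and 0.103). CBLC, a ubiquitin ligase of the CBL family, fell on average (−0.48, edgeR adjusted p = 0.0303) and differed between the siRNAs by 0.62 (edgeR adjusted p = 0.0366), at 24.9 CPM in siControl, 14.4 with HMOX1si1 and 22.2 with HMOX1si2. The list thus moved in both directions, with a median of 0.09. LRIG1 shares exons with SLC25A26.

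Of 20 adaptor and RAS-RAF-ERK genes, 3 were higher and 0 lower on average (5.16% and 4.93% of all genes), with a median of 0.14. GAB2, a docking protein that links receptors to PI3K and SHP2, rose with both siRNAs, from 12.99 and 11.3 CPM in siControl to 25.1 and 28.7 with HMOX1si1 and 24.7 and 22.95 with HMOX1si2 (average 1.06, SE 0.12, edgeR adjusted p = 0.0116). On average RASA1, a GTPase-activating protein that turns RAS off (0.63, edgeR adjusted p = 0.0230), and the kinase gene BRAF (0.61, edgeR adjusted p = 0.0311) rose too. With HMOX1si2 alone neither RASA1 nor BRAF passed (0.40 and 0.41, edgeR adjusted p = 0.0999 and 0.118). RASA1 shares exons with CCNH and BRAF with NDUFB2.

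Of 12 tested PI3K-AKT genes, 1 was higher and 0 were lower on average (5.16% and 4.93% of all genes). It was RICTOR, a subunit of the mTORC2 complex (0.53, edgeR adjusted p = 0.0389), which shares exons with OSMR. RICTOR did not pass with HMOX1si2 alone (0.35, edgeR adjusted p = 0.147). PIK3CB, a catalytic subunit of PI3K, differed between the siRNAs by −0.63 (edgeR adjusted p = 0.0469), at 102.5 CPM in siControl, 103.7 with HMOX1si1 and 66.8 with HMOX1si2. Of 17 genes known to be induced by ERK signalling, 3 were higher and 0 lower on average (5.16% and 4.93% of all genes), with a median of 0.06. FOSL1, an AP-1 subunit, rose by 1.42 (SE 0.14), and its libraries did not overlap between groups: 73.1 and 64.5 CPM in siControl, 198.7 and 257.0 with HMOX1si1 and 157.4 and 140.5 with HMOX1si2. The transcription factor gene EGR1 rose by 1.10 (edgeR adjusted p = 0.0376) and PHLDA1 by 0.54 (edgeR adjusted p = 0.0203). Neither EGR1 nor PHLDA1 passed with HMOX1si2 alone (0.77 and 0.35, edgeR adjusted p = 0.126 and 0.0825). The other 14 did not pass on average, among them the ERK phosphatase gene DUSP6 (−0.33, edgeR adjusted p = 0.488). CCND1, cyclin D1, differed between the siRNAs by −0.51 (edgeR adjusted p = 0.0440), at 452.7 CPM in siControl, 441.3 with HMOX1si1 and 310.7 with HMOX1si2, and shares exons with LTO1. Of 16 tested receptors for other growth factors, 2 were higher and 0 lower on average (5.16% and 4.93% of all genes). They were IGF1R (0.50, edgeR adjusted p = 0.0260) and IGF2R (0.47, edgeR adjusted p = 0.0410), and neither passed with HMOX1si2 alone.

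**Figure D5:**
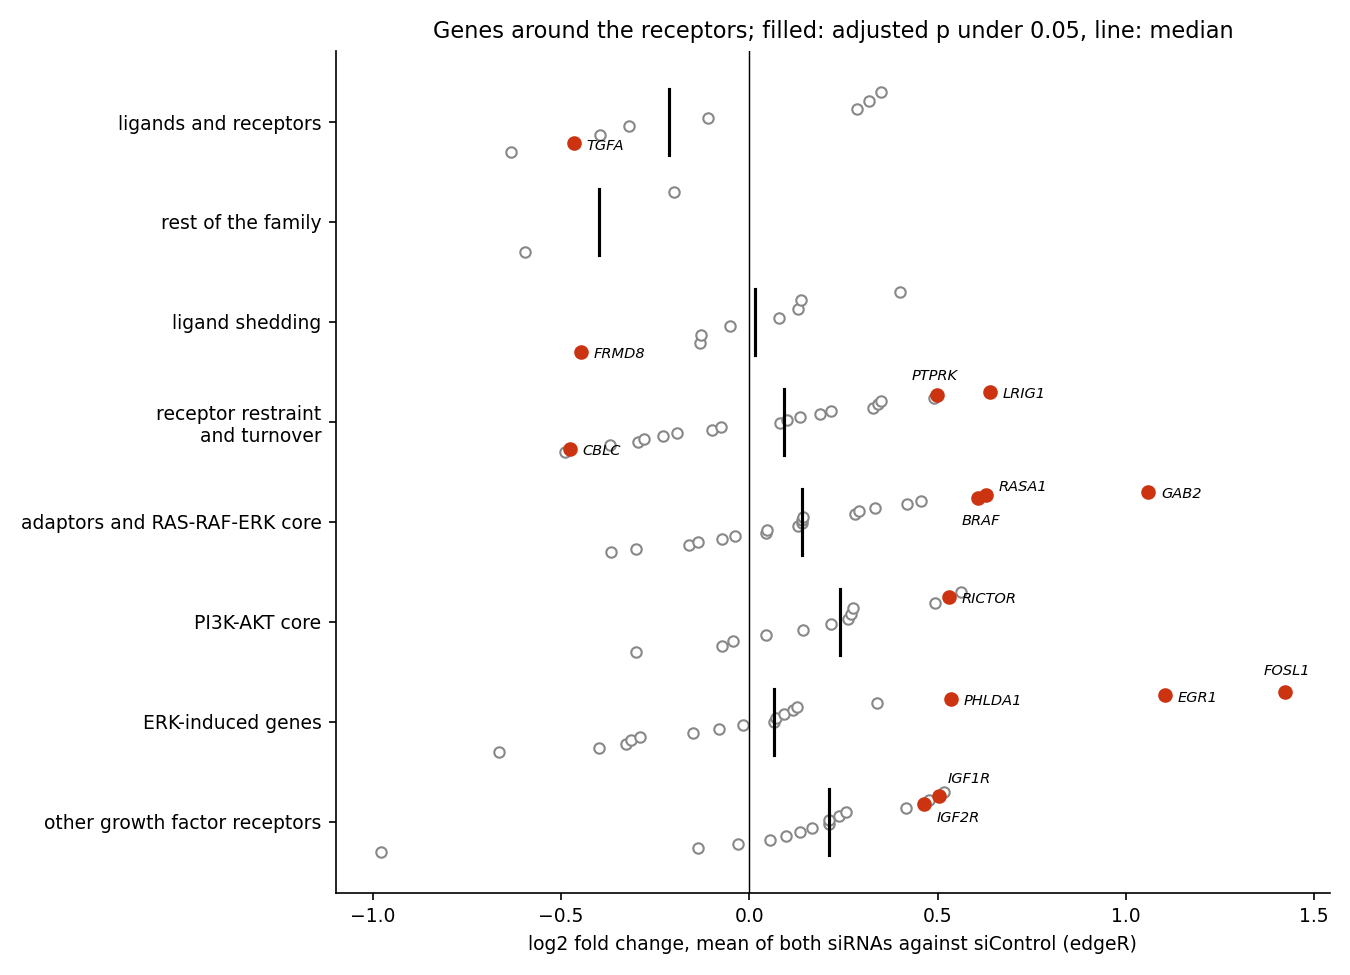
Average log2 fold change of both siRNAs against siControl (horizontal axis) for each tested gene of the members and of the 7 lists (rows). Filled points passed at an adjusted p under 0.05 over all genes, and the black line is the median of the list; 11 list genes passed to the right of 0 and 2, FRMD8 and CBLC, to the left.

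The genes whose levels ran most like a member were named by the root mean square (RMS) difference of log2 CPM, centred on each gene's mean, over the 6 libraries, among 10837 genes. All comparisons share the same 6 libraries, so the likeness describes them only. Nearest to TGFA were COA1 (0.04), PDF (0.04), MAN2C1 (0.04), VMA21 (0.05) and LUM (0.05), and nearest to EGFR were PIGM (0.07), TRIM73 (0.07), ZBTB26 (0.07), LRP8 (0.08) and PREPL (0.08). COA1, for example, stood at 48.9 and 48.9 CPM in siControl, 36.5 and 37.0 with HMOX1si1, and 30.8 and 37.3 with HMOX1si2. HBEGF was the 354th nearest gene to EGFR. By Pearson's correlation in place of the RMS difference, 2 of the 5 genes for TGFA (PDF and MAN2C1) and 0 of the 5 for EGFR were again among the first 5.

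The same measure for EREG was added after its values were seen. Among the nearest were IGFN1 (0.13), the desmosomal cadherin gene DSC2 (0.15), COL17A1 (0.17), a collagen of hemidesmosomes, and MRPL34 (0.18). COL17A1 stood at 474 and 420 CPM in siControl, 872 and 940 with HMOX1si1, and 272 and 258 with HMOX1si2. AREG was the 48th nearest gene to EREG (0.30), and no other member was nearer than the 1848th, which was ERBB3. By Pearson's correlation 0 of the first 5 genes for EREG recurred, and AREG was the 291st.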

How the data were processed

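Messenger RNA libraries from 6 AsPC-1 samples were sequenced, and the authors deposited 1 table of counts per Ensembl gene, with unit read from the values since no header states it. For the aligner, the counting tool and its use of strand, nothing is stated in the sources used here. The submitters' processing notes name the builds GRCm38 and mm10, which are mouse builds, while the deposited gene IDs are human; 20224 of the 20263 IDs are in GENCODE 29 and 20148 were given a symbol. Of the deposited counts from 1 to 10, 71.9% were even, against 49.9% of those over 100, so low counts may not be independent fragments, and intervals cover counting and replicate spread only.

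Counts were filtered with filterByExpr, scaled by TMM and tested with the quasi-likelihood test of edgeR 4.0.16 (R 4.3.3) over all 6 libraries with 1 mean per group, and p-values were adjusted over the 13769 genes by Benjamini-Hochberg with a threshold of 0.05. Log2 fold changes of 4 contrasts were taken: the mean of both siRNAs, each siRNA against siControl, and HMOX1si2 minus HMOX1si1. SE is the fold change divided by the root of F. CPM per kilobase uses the exons of GENCODE 29 (GRCh38). Scripts were tested on simulated data, where in the 1 draw made the share of false calls was above the adjusted threshold, so calls close to it are less certain.

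The members and all gene lists were chosen with earlier results of these data known. Named were all members, HMOX1, list genes past the threshold on average or between the siRNAs (up to 6 a list), the rest of the family, the 3 nearest genes on each side of the chromosome 4 cluster, and 5 genes most like the ligand and the receptor with the widest average change among members whose mean log2 CPM was 2 or more (BTC was below it). ADAM15, ADAM17, DUSP6, KRT8, KRT18 and KRT19 were named after their values were seen. Some genes that these rules would name are not reported here. Alternatives were other scalings and filters, DESeq2 1.42.0, limma-voom (limma 3.58.1), a replicate block, fewer groups in the fit, and each library left out; counts divided by 2 and a crossed block were chosen after seeing the data. With a library left out, the lone library of a group is assumed to vary like the others.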

Additional observations from a re-analysis of the deposited data

Results flagged for a closer look

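These results are repeated here because the effects of the 2 siRNAs differed by a direct test (HMOX1si2 minus HMOX1si1, edgeR, adjusted over all genes). The log2 differences were −1.49 for EREG, −1.07 for AREG, 0.62 for CBLC, −0.63 for PIK3CB and −0.51 for CCND1, with edgeR adjusted p = 0.00671, 0.0173, 0.0366, 0.0469 and 0.0440. The difference of EREG kept its call in 16 of 16 alternative settings, though only narrowly without either HMOX1si1 library. That of AREG kept it in 9 of 16, those of CBLC and PIK3CB in 7 of 16 and that of CCND1 in 6 of 16. Beside them, HMOX1 differed by −1.10, at 1.17 to 1.27 CPM against 2.43 to 2.80, a call kept in 6 of 16, and its part in these differences was not tested.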

How the results depend on the processing

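edgeR's counts of genes called were 1389 on average, 1381 with HMOX1si1, 789 with HMOX1si2 and 499 between the siRNAs, and those of members 1, 1, 2 and 2. With DESeq2's size factors, no filter, limma-voom and halved counts they stayed within 1.5 times, members included. DESeq2's own test called 2674, 2639, 1890 and 1411 genes, and 5, 4 and 4 members against siControl. With HMOX1si1 its calls included AREG (DESeq2 adjusted p = 0.0409) and TGFA (0.0391), which edgeR did not call. With HMOX1si2 they included EREG (DESeq2 adjusted p = 0.0233) and TGFA (0.00747), also not called by edgeR. Between the siRNAs DESeq2 also called ERBB2 (adjusted p = 0.0292). With library totals edgeR called 0 members on average and 2 with HMOX1si1, and with a filter of 1 CPM 2 with HMOX1si1. With only the groups compared it called 159 genes with HMOX1si2 and 154 between the siRNAs, and 0 and 1 members. For the average, that setting kept all 6 libraries with both siRNAs merged into 1 group, and edgeR called 315 genes and 0 members. With 1 library left out the counts of genes ran from 0 to 1579, 0 to 1476, 0 to 245 and 26 to 186, and those of members from 0 to 1, 0 to 1, 0 to 0 and 1 to 2. The 0 counts of genes came without a siControl library, with 3443 and 2560 genes on average, 2781 with HMOX1si1 and 2944 and 2398 with HMOX1si2 passing before adjustment, at p under 0.05; other tools were not run there. The log2 fold change of HMOX1 on average, −2.30, was −2.20 with only the groups compared, and ran from −2.35 to −2.25 with 1 library left out, where it missed the threshold without siControl replicate 1 (edgeR adjusted p = 0.0542) and siControl replicate 2 (0.0937). With a library left out, 3 differences between the siRNAs that had not passed changed sign: BTC ran from −0.35 to 0.21 (0.023 without HMOX1si1 replicate 1), EGFR from −0.083 to 0.15 (−0.027 without HMOX1si1 replicate 1) and TGFA from −0.24 to 0.014. The cause of these changes was not tested. Some of these fits had fewer samples or genes, and the fit with merged siRNAs had fewer groups.

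Same-numbered replicates share only a number in the labels, and the correlations of their deviations were 0.01, 0.03 and −0.15. With a replicate block edgeR called 255, 481, 45 and 87 genes and 0 members on average, 1 with HMOX1si1, 0 with HMOX1si2 and 1, EREG, between the siRNAs. With the numbers of HMOX1si2 crossed it called 312 genes and 2 members between the siRNAs. With 2 libraries a group, and low counts for BTC and EPGN, small differences of these members were not resolved.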
